A study of Mus musculus with 6 samples.

Results

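Tubulin monomers become assembly-competent through a chain of chaperones. Prefoldin carries nascent tubulin to the CCT chaperonin, a closed barrel that folds it, and the tubulin-folding cofactors A to E then join alpha and beta tubulin into the dimer that microtubules are built of. In heart muscle microtubules form a dense network around the nuclei and between the myofibrils. Dystrophin binds microtubules, and in muscle that lacks it this network is disorganised.

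Expression of 5 cofactor genes (Tbca, Tbcb, Tbcc, Tbcd and Tbce) and 4 tubulin genes (Tuba4a, Tuba8, Tubb5 and Tubb6) was examined in ventricles of male mice on a C57BL/10 background. Of the 10 genes listed for the set 9 were measured, out of 30063 genes named on the array. The tenth, Map4, which encodes a microtubule-associated protein of muscle, lay in a transcript cluster annotated with Map4 and with Mtap4, an alias of the same gene. Only clusters with a single symbol were named, so it was not analysed here. Every measured gene had 1 transcript cluster. The finerenone group held 3 mice that ate chow with 100 ppm of finerenone, a non-steroidal blocker of the mineralocorticoid receptor, from 4 weeks of age. The untreated group held 3 mice on that chow with no drug. All 6 mice, controls included, lacked dystrophin and carried only 1 working utrophin allele (the "Het" genotype, utrn+/-; mdx), and all were 20 weeks old, so the arrays hold no heart with normal dystrophin. Each mouse had its own array.

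The set was chosen by gene family around Tbca, which had been selected on its wide difference between these same groups. The differences below are therefore a description of these 6 arrays and carry no test of their own. Cardiomyocyte markers were bright in all hearts, with a mean log2 signal over 7 genes of 17.11 to 17.22 in finerenone hearts and 17.07 to 17.27 in untreated hearts. Atrial markers (4 genes) were near the level of the negative control probe sets, at 4.56 to 4.97 in finerenone hearts and 4.57 to 4.78 in untreated hearts. Untreated replicate 1 correlated least with the other arrays (mean r of 0.993 over all genes, against 0.995 or 0.996 elsewhere), so values are also given without it.

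Upstream sequence is shown for 2 cofactor genes of chromosome 13 that contrast in these data, Tbca with its groups apart and Tbce with the narrowest range of the set. Each run holds the 250 bases before the transcript start given by RefSeq (GRCm38.p6), 5′ to 3′ on the gene's strand, at chr13:94788670-94788919 on the plus strand for Tbca and chr13:14039639-14039888 on the minus strand for Tbce. Capitals mark a match to GGGCGG, the GC box bound by Sp-family factors, on either strand.
Tbca: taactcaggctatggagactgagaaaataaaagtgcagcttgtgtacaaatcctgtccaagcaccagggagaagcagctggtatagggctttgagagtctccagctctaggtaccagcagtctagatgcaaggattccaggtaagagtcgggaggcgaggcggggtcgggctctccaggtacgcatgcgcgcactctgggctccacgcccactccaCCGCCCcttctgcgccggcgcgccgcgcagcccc
Tbce: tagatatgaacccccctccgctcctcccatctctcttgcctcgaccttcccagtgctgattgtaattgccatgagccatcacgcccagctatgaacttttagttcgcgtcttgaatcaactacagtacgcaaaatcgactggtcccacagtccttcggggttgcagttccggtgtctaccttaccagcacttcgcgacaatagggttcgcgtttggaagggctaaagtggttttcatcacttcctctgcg
The Tbca run held 1 such match, 34 to 29 bases before the start, and the Tbce run held 0. Promoter windows of 300 bases (250 before to 50 after the start) were matched for 8 of the 9 genes. The GC box was held on either strand by 6 of these, as by 35.7% of all 32851 windows. The 6 were Tuba4a, Tbcb, Tbcd, Tbca, Tubb5 and Tbcc, and the groups of all but Tbca overlapped. The palindrome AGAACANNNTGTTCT, the element that mineralocorticoid and glucocorticoid receptors bind, was in 0 of the 8 and in 3 of all windows. Its half-site TGTTCT, which lies within the palindrome and was also searched on both strands, occurred in 1 of the 8, that of Tbcb, and in 19.0% of all windows. These matches describe the letters of the windows only.

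Cofactor A, the product of Tbca, captures beta tubulin released from the chaperonin. Tbca had log2 signals of 12.34, 13.10 and 12.37 in finerenone hearts, against 10.87, 11.83 and 11.51 in untreated hearts. All finerenone hearts lay above all untreated hearts, with 0.51 between the lowest finerenone and the highest untreated value. Its mean was 12.60 ± 0.43 (SD) in the 3 finerenone hearts and 11.40 ± 0.49 in the 3 untreated ones. The log2 difference was 1.20 ± 0.30 (SE of the limma fit), or 2.29-fold. By size and direction this was rank 7 of 30063 genes. By size in either direction it was rank 21, and by unadjusted p in limma rank 252. Without untreated replicate 1, the lowest of the 6 arrays for Tbca, the difference was 0.93 ± 0.27 (1.91-fold, rank 41). Groups that are apart over all arrays must stay apart when an array is left out.

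Cofactor B binds alpha tubulin. Tbcb measured 8.67, 8.58 and 8.41 in finerenone hearts, against 7.80, 8.63 and 8.34 in untreated hearts. The groups overlapped, with untreated replicate 1 lowest, and the log2 difference was 0.30 ± 0.21 (SE) over all arrays and 0.07 ± 0.13 without that one. Cofactor C triggers release of the finished dimer. Tbcc had 6.79, 6.76 and 7.14 in finerenone hearts, against 6.57, 6.90 and 6.52 in untreated hearts. Here too the groups overlapped, with a difference of 0.23 ± 0.15 over all arrays and 0.18 ± 0.18 without untreated replicate 1.

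Cofactors D and E take over beta and alpha tubulin and bring them together. Tbcd measured 6.53, 6.46 and 6.48 in finerenone hearts, against 6.41, 6.54 and 6.63 in untreated hearts. For Tbce the signals were 8.73, 8.72 and 8.61 in finerenone hearts, against 8.74, 8.74 and 8.71 in untreated hearts. Both genes varied little, over 0.21 (Tbcd) and 0.14 (Tbce) log2 units across the 6 arrays, and their groups overlapped. The differences were -0.04 ± 0.09 for Tbcd and -0.05 ± 0.08 for Tbce, and -0.09 and -0.04 without untreated replicate 1. On the log2 scale the Tbca difference exceeded the mean difference of the 4 other cofactors by 1.09. Tbca was selected on this contrast and they were not, so nothing follows from that excess.

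**Figure D1:**
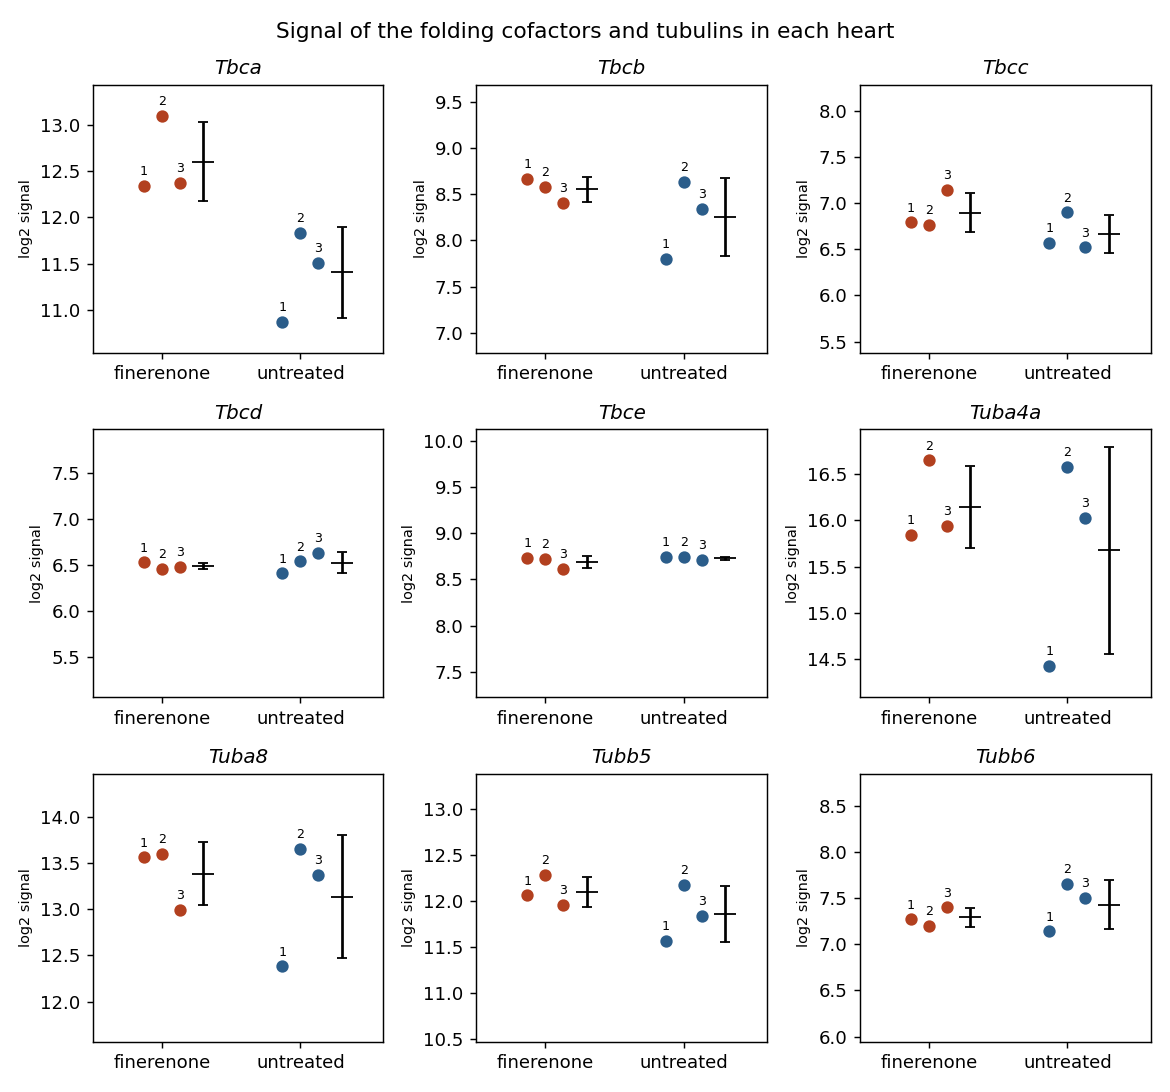
Log2 signal of the 9 genes (y axis, every panel spanning the same number of log2 units) in each finerenone heart (left, red) and each untreated heart (right, blue), with replicate numbers above the points and the group mean ± SD (n = 3) beside them. The Tbca groups do not overlap (12.34 to 13.10 in finerenone, 10.87 to 11.83 in untreated hearts), while untreated replicate 1 lies lowest in 7 of the 9 panels.

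The alpha tubulins of the set are Tuba4a, a form abundant in muscle that lacks the encoded C-terminal tyrosine of most alpha tubulins, and Tuba8, a divergent form found in heart, skeletal muscle and testis. Tuba4a had 15.84, 16.65 and 15.94 in finerenone hearts, against 14.42, 16.58 and 16.03 in untreated hearts. Tuba8 had 13.56, 13.60 and 12.99 in finerenone hearts, against 12.38, 13.65 and 13.37 in untreated hearts. Both genes overlapped between the groups, and in both untreated replicate 1 lay below every other array, by 1.42 log2 units for Tuba4a and 0.61 for Tuba8. The log2 difference of Tuba4a was 0.47 ± 0.55 (SE) over all arrays and -0.16 ± 0.30 without that array. For Tuba8 it was 0.25 ± 0.35, and -0.13 ± 0.22 without it. Both signs changed when that heart was left out.

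Tubb5 is the widely expressed beta tubulin, and Tubb6 a beta tubulin known for its rise in regenerating and dystrophic skeletal muscle. Tubb5 measured 12.06, 12.28 and 11.96 in finerenone hearts, against 11.57, 12.17 and 11.84 in untreated hearts. Its groups overlapped, with a log2 difference of 0.24 ± 0.17 (SE) over all arrays and 0.10 ± 0.15 without untreated replicate 1. Tubb6 measured 7.27, 7.20 and 7.40 in finerenone hearts, against 7.14, 7.65 and 7.50 in untreated hearts. Over all arrays Tubb6 was lower in finerenone hearts by a log2 difference of -0.14 ± 0.14, and the groups overlapped. Without untreated replicate 1 the difference was -0.29 ± 0.11, and the 3 finerenone hearts lay below both remaining untreated hearts. Tubulin genes resemble each other closely in sequence, so signal may be shared between their probe sets, and each tubulin value carries that uncertainty.

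**Figure D2:**
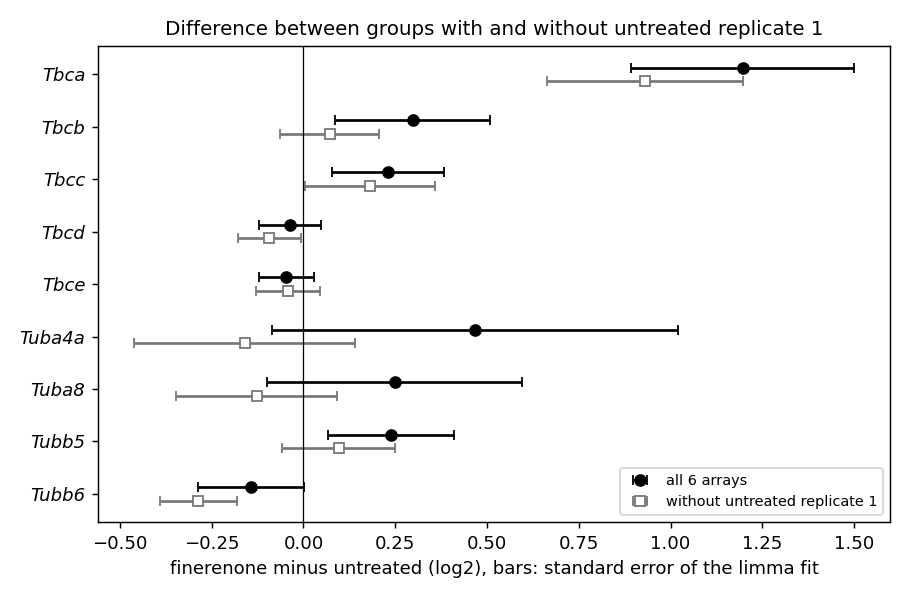
Finerenone minus untreated difference in log2 signal (x axis) for each of the 9 genes, with all 6 arrays (filled circles) and without untreated replicate 1 (open squares); bars are the standard error of the limma fit. Tbca stands at 1.20 and 0.93, and Tuba4a and Tuba8 change sign between the settings.

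Across the set 6 genes had a higher and 3 a lower mean in finerenone hearts, with a median log2 difference of 0.24, beside a median of 0.03 and 58.2% higher over all 30063 genes. Tbca, Tuba4a, Tuba8 and Tubb5 are bright, and over the 2460 genes with a mean signal of at least 11 the median was 0.14, with 70.5% higher. Without untreated replicate 1 the count was 4 higher and 5 lower in the set, with a median of -0.04, beside 0.03 over all genes and 0.09 over the bright ones. None of the 9 passed an adjusted p of 0.05 in limma (Benjamini-Hochberg over all genes), and neither did any other gene (0% called). Their adjusted p in limma ran from 0.597 for Tbca, the smallest over all genes and shared by 1057 of them, to 0.951 for Tbcd. At an unadjusted p below 0.05 in limma, 1 of the 9 (Tbca) was higher and 0 were lower, where 5.69% of all genes were higher and 2.12% were lower. Finerenone arrays lay wholly above untreated arrays for 1 of the 9, Tbca, and for 8.17% of all genes, and wholly below for 0 of the 9 and for 4.17% of all genes. Without untreated replicate 1 they lay wholly above for Tbca alone among the 9 (13.9% of all genes) and wholly below for Tbcd and Tubb6 (8.36% of all genes). Tbca was selected on this contrast, so nothing follows from its place in these counts.

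Untreated replicate 1 was the lowest of the 6 arrays for 7 of the 9 genes, all except Tbcc and Tbce. Over all genes it was lowest for 23.6%, over the 13987 genes at or above the negative control median for 32.7%, and over the 2460 bright genes for 44.3%. The endothelial markers moved the other way in that heart. Their mean over 5 genes was 11.91 to 12.16 in finerenone hearts and 12.18 to 12.98 in untreated hearts, untreated replicate 1 being highest in 5 of 5. Smooth muscle and pericyte markers (7 genes) averaged 9.08 to 9.37 in finerenone hearts and 9.22 to 9.73 in untreated hearts, with that array highest in 5 of 7. The macrophage mean (7 genes) was 9.65 to 10.15 in finerenone and 9.23 to 9.84 in untreated hearts. Fewer cells of a type and less RNA per cell cannot be told apart in whole ventricle, and the part of these cell types in the tubulin and cofactor values was not tested.

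The steps before the cofactors were followed through a prefoldin and a CCT chaperonin list. All 5 measured prefoldin subunits had a higher mean in finerenone hearts, with a median log2 difference of 0.39. Without untreated replicate 1, 4 of the 5 were higher and the median was 0.34. Every measured gene of both lists lay at or above the negative control median. Of the 13987 genes at or above it, 60.3% had a higher mean in finerenone hearts, with a median of 0.04 (0.03 without untreated replicate 1). Pfdn5, Cct2 and Cct8 are bright, and over the 2460 genes with a mean signal of at least 11 the share was 70.5%. The median of those bright genes was 0.14, and 0.09 without that array. Under quantile normalization the prefoldin median was 0.29 and the CCT median 0.14. Pfdn1, a prefoldin subunit, measured 7.66, 7.53 and 7.38 in finerenone hearts, against 6.70, 7.25 and 6.75 in untreated hearts. These groups did not overlap, and the difference was 0.62 ± 0.17 (SE; limma adjusted p = 0.597). Pfdn1, and Cct4 and Tcp1 below, are named because they had the smallest unadjusted p in limma of their lists. Their separation follows in part from that choice. Of the CCT list, 8 measured genes with the chaperonin helper Pdcl3 among them, 7 had a higher mean and 1 a lower one, with a median of 0.24 (0.13 without untreated replicate 1, with 7 higher). Cct4, a subunit of the barrel, measured 9.79, 9.66 and 9.57 in finerenone hearts, against 9.38, 9.44 and 9.25 in untreated hearts, a difference of 0.32 ± 0.10 without overlap. Tcp1, the alpha subunit of the chaperonin, measured 9.98, 9.65 and 9.78 in finerenone hearts, against 9.43, 9.61 and 9.49 in untreated hearts, and differed by 0.29 ± 0.11. Finerenone arrays lay wholly above untreated arrays for 2 of 5 prefoldin and 4 of 8 CCT genes, beside 8.17% of all genes. At an unadjusted p below 0.05 in limma 2 prefoldin and 3 CCT genes were higher, beside 5.69% of all genes, and 0 genes of either list passed the adjusted threshold. Counted in either direction, 2106 of the 13987 genes at or above the negative control median did not overlap, against 3712 of all 30063. At an unadjusted p below 0.05 in limma these counts were 1482 and 2347. Both shares were thus larger at or above that median, where these lists lie. Untreated replicate 1 was the lowest array for 5 of the 5 and 6 of the 8.

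The remaining genes of the cofactor and tubulin families differed less than Tbca over all arrays. Tbccd1, Tuba1a and Tubb3 had the smallest unadjusted p in limma among genes of their lists outside the set. Arl2, the small GTPase that works with cofactors D and E, measured 8.46, 8.62 and 8.45 in finerenone hearts, against 8.20, 8.72 and 8.51 in untreated hearts, a log2 difference of 0.03 ± 0.14 (SE). Tbccd1, a relative of cofactor C, differed by 0.09 ± 0.08, and its narrow groups (6.09 to 6.13 in finerenone, 5.92 to 6.07 in untreated hearts) did not overlap. Of the 8 cofactor genes 5 were higher and 3 lower (median 0.06). Of 5 measured alpha tubulins 5 were higher (median 0.25, and 0.01 without untreated replicate 1, with 3 higher). Tuba1a, a main alpha tubulin of many tissues, measured 15.89, 15.88 and 15.85 in finerenone hearts, against 15.26, 15.92 and 15.64 in untreated hearts, with overlap and a difference of 0.27 ± 0.17. Of 8 beta tubulins 3 were higher and 5 lower (median -0.05, with -0.11 without untreated replicate 1 and 0.14 without untreated replicate 2, so its direction turned on 1 array). Tubb4b, a beta tubulin of most tissues, measured 8.46, 8.47 and 8.48 in finerenone hearts, against 7.79, 9.06 and 8.72 in untreated hearts, so that the untreated hearts enclosed the finerenone ones. Its difference was -0.05 ± 0.31, and -0.42 without untreated replicate 1. Tubb3, the neuronal beta tubulin, was dim, at 4.01 to 4.41 in finerenone hearts and 3.92 to 4.22 in untreated hearts, below the negative control medians of 5.04 to 5.33. The negative control median was reached by 4 of the 5 alpha and 6 of the 8 beta tubulins, so their counts include dim genes.

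Genes that nucleate, bind, modify, cut or walk along microtubules were split between higher and lower means. Except for Ttl, Svbp and Kif5b, the measured genes named from these lists had the smallest unadjusted p in limma of their list. Their separation follows in part from that choice. In the gamma tubulin ring complex list 6 of 12 were higher, with a median log2 difference of -0.02. Pcnt, the centrosomal scaffold pericentrin, measured 7.71, 7.69 and 7.88 in finerenone hearts, against 7.96, 7.95 and 8.12 in untreated hearts, a difference of -0.25 ± 0.09 (SE) without overlap, and Mzt2, a small subunit of the ring complex, differed by 0.24 ± 0.10. Of 28 microtubule-associated proteins 15 were higher (median 0.00), among them the tubulin-sequestering Stmn1 at 0.34 ± 0.16, while the spectraplakin Dst differed by -0.34 ± 0.16. Of 20 tubulin-modifying enzymes 13 were higher (median 0.02). A mean at or above the negative control median was reached by 22 of these 28 proteins and 11 of these 20 enzymes, so both counts include dim genes. Ttl, which restores the tyrosine of alpha tubulin, differed by 0.07 ± 0.12, Svbp, the partner of the enzymes that remove it, by 0.12 ± 0.10, the deacetylase Sirt2 by 0.27 ± 0.14 and the glutamylase Ttll7 by -0.23 ± 0.11. Tuba1b and Vash1 had no cluster with a single symbol and are not analysed here.

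In the list of severing enzymes and tubulin mRNA control 4 of 7 genes were higher (median log2 difference 0.07). Fign, the severing enzyme fidgetin, measured 6.36, 6.04 and 5.94 in finerenone hearts, against 6.37, 6.42 and 6.76 in untreated hearts, a difference of -0.41 ± 0.15 (SE) without overlap. Of 26 motor genes 16 were higher (median 0.03). Dim genes are counted here too, since 4 of the 7 severing-list genes and 20 of the 26 motor genes reached the negative control median. Kif1b, a kinesin, measured 10.46, 10.68 and 10.58 in finerenone hearts, against 10.86, 10.76 and 10.90 in untreated hearts, and differed by -0.27 ± 0.09. Dynlt3, a light chain of dynein, differed by 0.28 ± 0.09, and Kif5b, the ubiquitous kinesin heavy chain, by -0.22 ± 0.09. Over all 10 lists 127 of 144 genes were measured, and 0 passed the adjusted threshold in limma. At an unadjusted p below 0.05 in limma there were 8 higher (6.30%) and 3 lower (2.36%), where 5.69% and 2.12% of all genes were. Tbca, selected on this contrast, is among the 8, so nothing follows from its place there. Finerenone arrays lay wholly above untreated arrays for 15 of the 127 (11.8%), Tbca among them, and wholly below for 4 (3.15%), where 8.17% and 4.17% of all genes did.

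**Figure D3:**
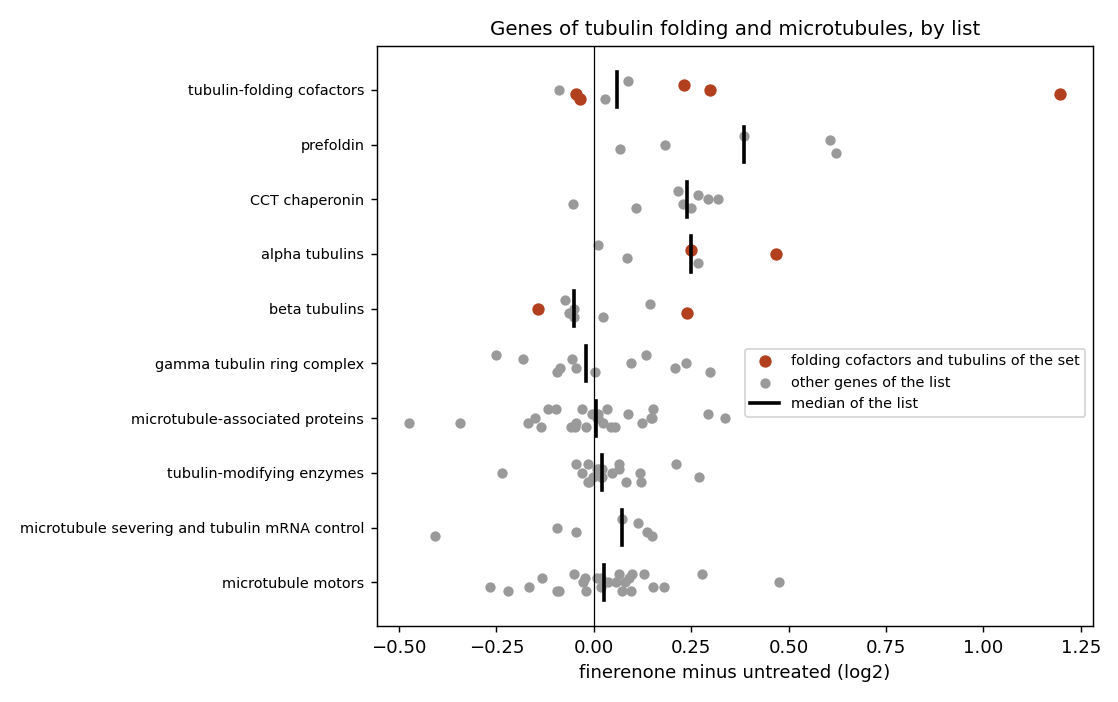
Finerenone minus untreated difference in log2 signal (x axis) of every measured gene in 10 lists of tubulin folding and microtubule biology (rows); red points are the 9 genes of the set, grey points the other genes, and black bars the list medians. Tbca lies farthest right at 1.20, and the prefoldin and CCT medians stand at 0.39 and 0.24.

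Across the 6 arrays the genes most like Tbca, among 8939 with a mean signal of at least 6, were Klhl20, Rpl22l1, Mif, Letmd1 and Mlf1, with Pearson correlations of 0.997, 0.996, 0.996, 0.994 and 0.990. These correlations describe 6 arrays that include untreated replicate 1 and 2 groups, and 93 genes reached at least 0.95. Each of the 5 ranked the arrays in the same order as Tbca (Spearman's rho of 1). They were picked for their likeness to Tbca, so this order and the direction of their differences follow from that choice. Rpl22l1, a ribosomal protein paralog, measured 8.86, 9.33 and 8.93 in finerenone hearts, against 7.83, 8.44 and 8.24 in untreated hearts, a log2 difference of 0.87 ± 0.19 (SE). Mif, the macrophage migration inhibitory factor, differed by 0.76 ± 0.20 and Mlf1 by 0.74 ± 0.19, while Klhl20 and Letmd1 had Tbca's order within narrow ranges of 0.19 and 0.21 log2 units.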

How the data were processed

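Ventricular RNA of 6 mice was measured on Affymetrix whole-transcript arrays. The authors deposited log2 signals. The submitters' processing notes name RMA, Transcriptome Analysis Console and Affymetrix Expression Console; their versions and the build are not given in the sources. RNA integrity numbers were above 7.3, per the labels' protocols. Clusters were named from the platform annotation, with symbols updated to RefSeq GRCm38.p6: 30604 of 65956 had a single symbol, 2146 several and 33206 none. Of several clusters for a gene, the brightest was used (30063 genes).

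Groups came from the sample titles. Differences were fitted by lmFit and eBayes of limma 3.58.1 (R 4.3.3, two-sided, without covariates or filter) and adjusted over all genes by Benjamini-Hochberg at 0.05. The fit was tested on simulated data. Having 3 arrays a group limits the precision. The labels call the mice biological replicates. Members, lists, tests and alternatives were chosen with earlier results of these data known. Genes named beside the members were the 1 or 2 per list with the smallest unadjusted p, 8 set by name and the 5 most correlated with Tbca; predicted genes were skipped. The alternatives were 2 scalings, a dim filter, other cluster and variance settings, array weights, a replicate block and each array left out.

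Replicate numbers showed no pairing of the arrays over all genes, which cannot decide whether arrays of the same number were handled together. Deviations from the group means correlated at -0.154, 0.058 and 0.059 for numbers 1, 2 and 3, and at -0.174 to 0.121 between unlike numbers.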

Additional observations from a re-analysis of the deposited data

How the results depend on the processing

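Under all 14 alternatives Tbca was higher in finerenone hearts, from 0.93 without untreated replicate 1 to 1.41 without untreated replicate 2, and its adjusted p in limma ran from 0.429 to 0.870, so it passed in none. With single arrays left out its sign could not change, since its groups do not overlap. The dim filter and the other cluster and variance settings left its difference at 1.20. With the replicate block the Tbca difference stayed at 1.20, as each number holds 1 array per group. Its SE was 0.15 with the block and 0.30 without, while that of Tbcc was 0.17 with it and 0.15 without. With the block 2312 genes had an unadjusted p below 0.05 in limma, against 2347 without it, and no call changed. With single arrays left out, Tuba4a ran from -0.16 to 0.92, Tuba8 from -0.13 to 0.51 and Tbcd from -0.093 to 0.014. The 2 negative ends of Tuba4a and Tuba8 came without untreated replicate 1, and Tbcd was above 0 without untreated replicate 3. Quantile normalization kept every sign, with Tuba4a at 0.18 and Tuba8 at 0.04, but turned 4 list medians: alpha tubulins to -0.02, microtubule-associated proteins to -0.04, motors to -0.02 and modifying enzymes to -0.0069. Without untreated replicate 2 the beta tubulin median turned to 0.14 and that of the gamma tubulin ring complex to 0.02. The median of the microtubule-associated proteins, near 0, ran from -0.04 to 0.02. Tbcb, Tbcc and Tubb5 stayed higher, and Tbce and Tubb6 lower, in all 14. The settings that kept Tbca at 1.20 left these differences unchanged too, so those settings could not turn a sign. Among 13987 genes at or above the negative control median, 1482 had an unadjusted p below 0.05 in limma and 2106 had groups that did not overlap. Both counts were lower because fewer genes were tested, but both were larger shares of the genes tested than over all genes. With single arrays left out, 6258 to 7738 genes did not overlap, against 3712, since fewer arrays must separate. No alternative gave a gene past the adjusted threshold in limma. What could be detected was limited by 3 arrays a group.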
